A study of Rattus norvegicus with 22 samples.

Results

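Serpina12, the rat gene for vaspin (identifier ENSRNOG00000042634 in the deposited table), is 1 of 24286 genes measured by RNA-seq in 22 rat fat libraries. It was chosen by its CPM and fold change, which were higher after duodenal-jejunal bypass (DJB) than in diabetic rats in both fat depots, so its DJB minus T2DM differences are given as a description with no test. The study asked how DJB, an operation that joins the stomach's outflow to the jejunum so that food passes by the duodenum, alters fat tissue, and compared rats with type 2 diabetes (T2DM) with rats after DJB. Visceral fat came from the mesentery, with 6 T2DM and 6 DJB libraries, and subcutaneous fat from the groin, with 5 T2DM and 5 DJB libraries. All rats are labelled genotype WT and treatment HFD (a high-fat diet), the time is 4 months in all groups, and every sample carries the same treatment text, which names 30 mg/kg of streptozotocin (STZ, a toxin of insulin-producing cells) together with the bypass operation. No group used here is labelled healthy or sham-operated, and sham surgery in the T2DM group is neither stated nor excluded by the labels. DJB and T2DM libraries may therefore differ by surgery or feeding as well as by the bypass. Nothing in the labels ties each replicate to its own rat, and p-values measure only the spread between samples, which may be technical.

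Vaspin is a secreted protein of the serpin superfamily, whose members trap serine proteases by offering them a reactive loop. It belongs to clade A with alpha-1-antitrypsin and was first described as a transcript of visceral fat in OLETF rats, an obese diabetic strain. It inhibits kallikrein 7, a protease that can cleave insulin, and kallikrein 14, and cell-surface GRP78 (encoded by Hspa5) with its partner MTJ1 (Dnajc1), and the channel VDAC (Vdac1) in endothelial cells, have been described as binding sites.

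The promoter of Serpina12 is shown because the rest of the results concern how much of this gene's transcript each library held. RefSeq places it on the minus strand of chromosome 6 at chr6:128732000-128732299 of the rat build GRCr8, and the 300 bases below, 5′ to 3′ on the gene's strand, run from 250 before the annotated start to 50 after it. Capitals mark matches to 3 of the 8 motifs searched on both strands, with no overlaps between them.
Serpina12 promoter: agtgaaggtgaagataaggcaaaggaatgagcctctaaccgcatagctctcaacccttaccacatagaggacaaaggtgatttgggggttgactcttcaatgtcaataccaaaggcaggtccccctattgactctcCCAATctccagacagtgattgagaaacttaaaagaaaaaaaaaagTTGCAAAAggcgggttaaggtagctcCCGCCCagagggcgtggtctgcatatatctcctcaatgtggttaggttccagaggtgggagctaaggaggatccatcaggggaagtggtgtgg
The CCAAT box (CCAAT) lay 114 bases before the start on the gene's strand, and 37.5% of the 33469 RefSeq rat promoters of this length hold one on either strand. A match to the C/EBP-type motif TTGCNNAA lay 69 bases before the start, and 10.6% of promoters hold that motif. A GC box (GGGCGG, read on the opposite strand) lay 43 bases before the start, and 33.1% of promoters hold one. The window held no match to TATAAA (in 14.2% of promoters), the nuclear receptor half-site AGGTCA (16.2%), the E-box CANNTG (72.1%), the FOXO-type motif GTAAACA (3.78%) or the CRE TGACGTCA (1.83%). The window has a GC content of 48%. Base content differs between promoters and the motifs were searched with the sequence in view, so a match is only a description of these letters.

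Levels are given as CPM, the deposited read counts scaled to a common library total after adjustment by TMM, a factor that equalises the bulk of genes. In the 6 visceral T2DM libraries Serpina12 was at 2.12, 2.11, 0.197, 0.618, 0.590 and 0.325 CPM, a group median of 0.604 CPM. In the 6 visceral DJB libraries, libraries 1 to 6, it was at 36.2, 53.3, 2.49, 12.4, 8.99 and 5.53 CPM, a median of 10.7 CPM. Every visceral DJB library was above every visceral T2DM library, with the lowest DJB value close to the highest T2DM value, and the 6 DJB values themselves ranged from 2.49 to 53.3 CPM. In bulk fat, fewer cells of a type and less RNA per cell cannot be told apart. Of 14019 genes tested, 0.521% had all DJB libraries above all T2DM libraries in visceral fat, and since that comparison chose the gene nothing is read from it.

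In the 5 subcutaneous T2DM libraries Serpina12 was at 0.126, 0, 0.165, 0 and 0.268 CPM. The 2 libraries with no read allow up to 0.0306 and 0.0601 CPM, the values of 3 counts, which cover counting error only. In the 5 subcutaneous DJB libraries it was at 4.58, 0.372, 0.121, 0.366 and 19.3 CPM, a median of 0.372 CPM. DJB library 5 stood far above the other DJB libraries, library 1 followed, and library 3 lay within the T2DM range, so the subcutaneous groups overlapped. The raw counts behind these values were few in the low groups, with 330 reads in all over the visceral T2DM group and 37 over the subcutaneous T2DM group, against 7578 over the visceral DJB group and 1809 over the subcutaneous DJB group.

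**Figure D1:**
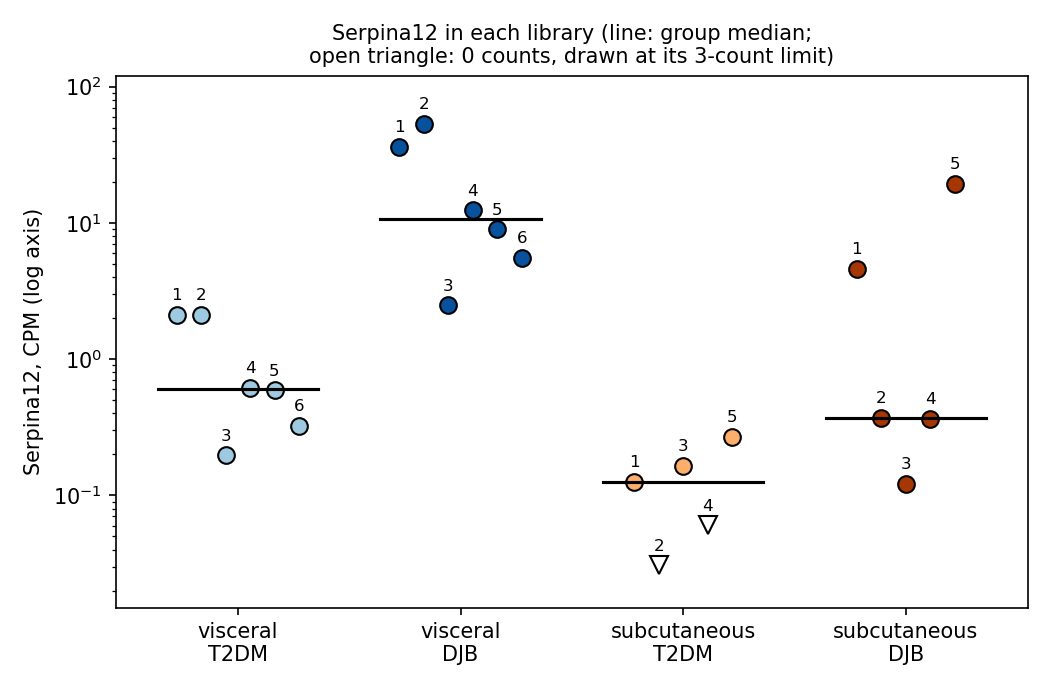
Serpina12 CPM (log axis) in each of the 22 libraries, by depot and condition, with the replicate number beside each point, the group median as a line and libraries with 0 counts drawn as open triangles at their 3-count limit. The visceral DJB libraries sit from 2.49 to 53.3 CPM, above all visceral T2DM libraries, while subcutaneous DJB libraries 2, 3 and 4 sit at or near the T2DM levels and libraries 1 and 5 above them.

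The libraries contributed unequally to the DJB levels. In visceral fat, DJB library 2 held 44.9% of the group's summed Serpina12 CPM and library 1 held 30.4%, together 75.3%. In subcutaneous fat, DJB library 5 held 78.0% and library 1 held 18.5%, together 96.5%. The coefficient of variation was 103% in visceral DJB, 166% in subcutaneous DJB, 88.9% in visceral T2DM and 102% in subcutaneous T2DM.

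The size of the DJB difference therefore depended on the summary used. The visceral means were 19.8 ± 20.3 CPM after DJB (SD, n = 6) and 0.992 ± 0.882 CPM in T2DM (SD, n = 6), a ratio of 19.97, and the medians gave a ratio of 17.7. The subcutaneous means were 4.94 ± 8.23 CPM after DJB (SD, n = 5) and 0.112 ± 0.115 CPM in T2DM (SD, n = 5), a ratio of 44.2, whereas the medians gave a ratio of 2.96. In the fitted model the log2 difference was 4.32 (SE 1.18) in visceral fat and 5.45 (SE 1.39) in subcutaneous fat, where the median gene was at -0.03 and 0.05. Ranked by log2 difference, Serpina12 was number 19 from the top in visceral fat and number 17 in subcutaneous fat among the 14019 genes. It entered that set because FPKM reached 1 in all 6 visceral DJB libraries, and in 1 visceral T2DM, 2 subcutaneous DJB and 0 subcutaneous T2DM libraries, so it passed the filter through the group where it was high. Whether the DJB difference itself differed between depots was not tested.

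Leaving out 1 library at a time kept the visceral difference between 3.74, without DJB library 2, and 4.70, without T2DM library 2. Without both DJB libraries 1 and 2 it was 2.88. The subcutaneous difference was 3.59 without DJB library 5 and at most 6.06, without T2DM library 5. On the log2(FPKM + 1) scale, where values under 1 FPKM are compressed, the differences were 2.51 in visceral fat and 1.16 in subcutaneous fat.

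**Figure D2:**
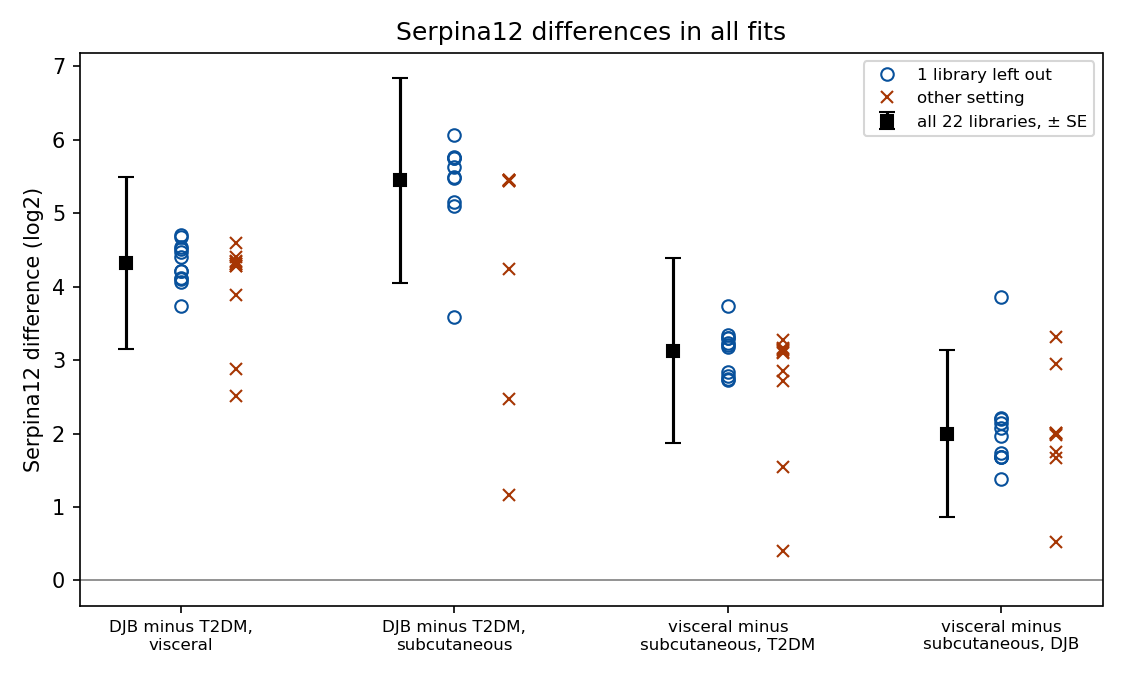
Serpina12 log2 differences in the 4 comparisons, from all 22 libraries with SE (squares), with 1 library left out (circles) and under other settings of the fit (crosses). All values lie above 0, and the subcutaneous DJB minus T2DM difference moves from 5.45 to 3.59 without DJB library 5 and to 1.16 on the log2(FPKM + 1) scale.

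Between depots, Serpina12 was higher in visceral than in subcutaneous fat by group median and mean in both conditions. In T2DM rats the log2 difference was 3.13 (SE 1.26) in edgeR and 3.15 in DESeq2. Both T2DM groups were part of the choice of the gene, and visceral DJB let it through the filter. This difference is therefore a description with no test. The 2 visceral libraries with the highest levels, 1 and 2, were at 2.12 and 2.11 CPM, the lowest visceral library at 0.197 CPM lay below the highest subcutaneous library at 0.268 CPM, and the other 5 visceral libraries lay above all subcutaneous ones. The ratio of medians was 4.79 and that of means 8.88. After DJB the depot difference was 2.00 (SE 1.13), with ratios of 28.7 for medians and 4.01 for means, given as a description because the visceral DJB group chose the gene and let it through the filter. That difference was 3.86 without subcutaneous DJB library 5, 1.39 without visceral DJB library 2 and 0.53 without visceral DJB libraries 1 and 2. EdgeR's quasi-likelihood test, with Benjamini-Hochberg adjustment over 14019 genes, called 8.72% of genes between the depots in T2DM and 1.32% after DJB.

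By median CPM the groups ran from visceral DJB (10.7) through visceral T2DM (0.604) and subcutaneous DJB (0.372) to subcutaneous T2DM (0.126). Visceral T2DM and subcutaneous DJB could not be ordered, because all 6 visceral T2DM values fell inside the subcutaneous DJB range and the means gave the opposite order. Subcutaneous DJB and subcutaneous T2DM also overlapped.

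Vaspin transcript was scarce beside most secreted fat products. On the per-length FPKM scale its mean was 0.447 ± 0.393 in visceral T2DM (SD, n = 6), 9.87 ± 8.66 in visceral DJB (SD, n = 6), 0.0691 ± 0.0712 in subcutaneous T2DM (SD, n = 5) and 3.08 ± 5.13 in subcutaneous DJB (SD, n = 5). Among itself and 34 other adipokine genes it ranked 30 of 35 in visceral T2DM, 21 in visceral DJB, 33 in subcutaneous T2DM and 24 in subcutaneous DJB. Adipsin (Cfd, a complement protease) or adiponectin (Adipoq, an insulin-sensitising hormone) led that order, with mean FPKM of 1951 for Cfd in visceral T2DM and 637 for Adipoq in visceral DJB. After DJB, Serpina12 stood between Angptl8 and Gdf15 in visceral fat and between Sfrp5 and Gdf15 in subcutaneous fat. Among all genes of a library, the share of genes with a lower FPKM ran from 30.7% to 50.0% in visceral T2DM, 50.4% to 91.0% in visceral DJB, 0% to 35.1% in subcutaneous T2DM and 30.0% to 78.3% in subcutaneous DJB.

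Adipocyte transcripts did not follow the same order of groups. The summed CPM of 16 adipocyte markers, with Adipoq, perilipin and lipase genes among them, was 13171 to 51260 in visceral T2DM and 8310 to 20568 in visceral DJB. It was 2729 to 6759 in subcutaneous T2DM and 547 to 20686 in subcutaneous DJB. In visceral fat all 16 markers had a negative DJB minus T2DM difference (median -1.35), opposite in sign to Serpina12, and none passed the test in edgeR (4 at an unadjusted p under 0.05, with 2 called lower by DESeq2 and 0 by limma). In subcutaneous fat all 16 were positive (median 0.68, but -0.66 without DJB library 5), again with none called or at an unadjusted p under 0.05 in edgeR, DESeq2 or limma, and the highest sum of the depot, 20686, was in DJB library 5, the library with the most Serpina12.

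Serpina12 was also expressed per 10000 CPM of adipocyte marker transcript. The ratio was 0.113 to 1.61 in visceral T2DM (median 0.282) and 29.4, 40.3, 2.27, 6.01, 10.8 and 6.15 in visceral DJB libraries 1 to 6 (median 8.48). It was 0 to 0.982 in subcutaneous T2DM (median 0.244) and 9.92, 6.80, 0.198, 0.757 and 9.32 in subcutaneous DJB libraries 1 to 5 (median 6.80). On this scale, as in CPM, the visceral groups did not overlap and the subcutaneous groups did. The numerator is the CPM that chose the gene. The visceral adipocyte sum had a median of 22247 CPM in T2DM and 11634 CPM in DJB, so nothing is read from the visceral separation. Subcutaneous DJB library 5 was no longer apart from library 1. Subcutaneous DJB library 2 was at 6.80 with an adipocyte sum of 547 CPM, the lowest of all 22 libraries, and 0.372 CPM of Serpina12.

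**Figure D3:**
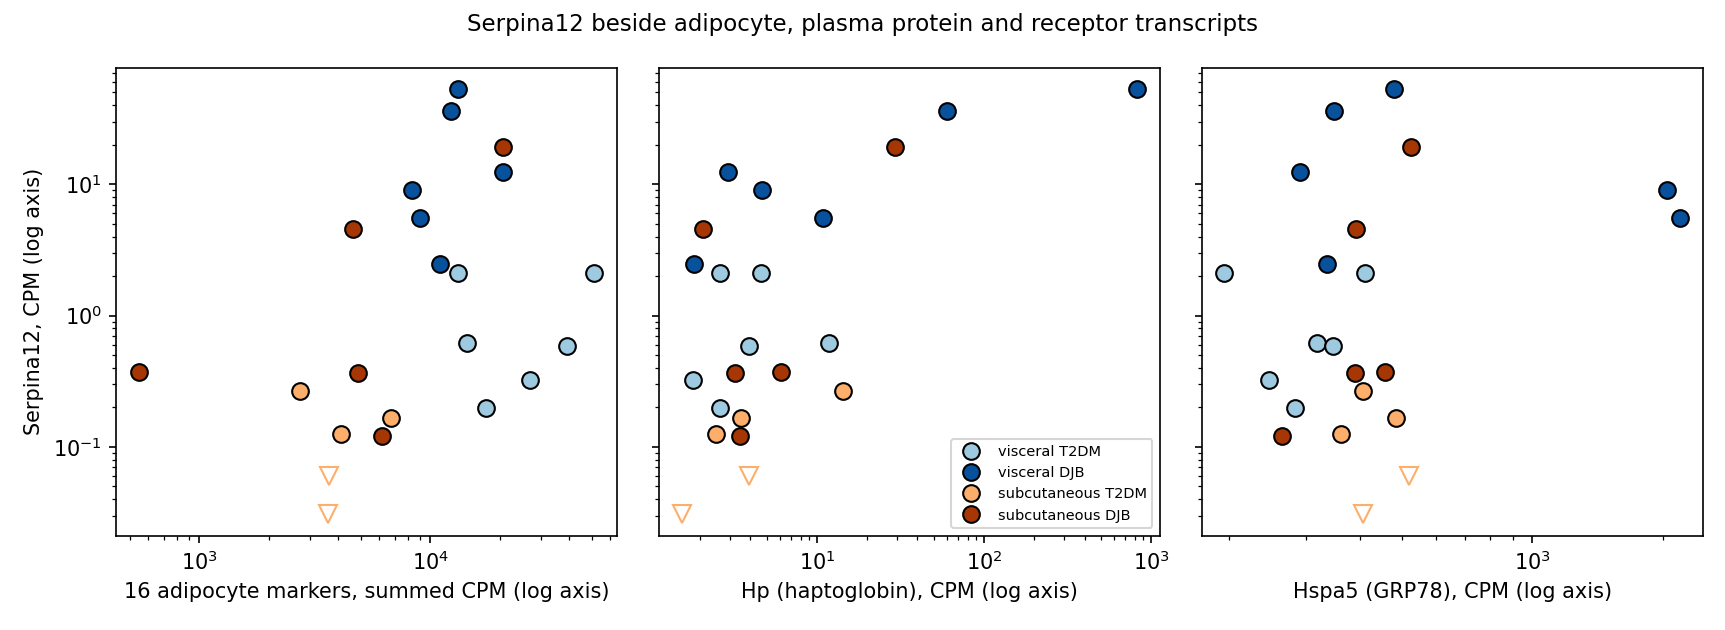
Serpina12 CPM against the summed CPM of 16 adipocyte markers, against haptoglobin (Hp) and against Hspa5, each point 1 library, all axes logarithmic, and open triangles for libraries with 0 Serpina12 counts at their 3-count limit. On the adipocyte axis visceral DJB (8310 to 20568) overlaps visceral T2DM (13171 to 51260) while all its libraries lie above on the Serpina12 axis, and the 3 libraries with the most Serpina12 are also the 3 with the most Hp.

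Some libraries stood apart in ways that touch these values. Total counts ran from 46824314 to 88829000 per library and TMM factors from 0.543 to 1.39. The mitochondrial share of counts was 11.3% to 45.4% in visceral T2DM, 15.9% to 48.9% in visceral DJB, 5.57% to 16.5% in subcutaneous T2DM and 11.9% to 34.2% in subcutaneous DJB. The 9 urothelium markers, among them uroplakins, summed to 1969, 1732 and 1195 CPM in the libraries 2, 3 and 4 of visceral T2DM, and to at most 11.1 CPM in visceral DJB. The 11 milk protein markers summed to as much as 186936 CPM in subcutaneous T2DM and 96821 CPM in subcutaneous DJB. The 10 B and plasma cell markers summed to 3095 CPM in subcutaneous DJB library 2. Their part in the Serpina12 differences was not tested; without visceral T2DM libraries 2, 3 and 4 the visceral difference was 4.28.

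Of the 5 described partners, 3 were expressed enough to be tested, and 1, Hspa5, was called higher in visceral fat after DJB, where edgeR called 4.69% of all genes, 0.421% higher and 4.27% lower. Hspa5, which encodes the chaperone GRP78, was at 411, 195, 284, 320, 347 and 247 CPM in visceral T2DM and at 349, 481, 337, 292, 2043 and 2186 CPM in visceral DJB. DJB libraries 5 and 6 stood far above all others, whereas the libraries with the most Serpina12, 1 and 2, were at 349 and 481 CPM. The log2 difference was 1.66 (SE 0.45, adjusted p = 0.0409 in edgeR), with overlapping groups, and the call was kept only without T2DM library 1, T2DM library 4 or DJB library 4 when 1 of the 12 visceral libraries was left out. Dnajc1, the DnaJ partner of GRP78, differed by 0.36 (SE 0.23, adjusted p = 0.372 in edgeR) and Vdac1, an outer mitochondrial membrane channel, by -0.72 (SE 0.26, adjusted p = 0.108 in edgeR).

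In subcutaneous fat none of the 3 passed in edgeR, which called 0% of genes there (1259 of 14019 at an unadjusted p under 0.05, with 168 called by DESeq2 and 0 by limma on log2(FPKM + 1)). Hspa5 was at 363 to 519 CPM in subcutaneous T2DM and at 264 to 526 CPM in subcutaneous DJB, so the groups lay over each other. Between depots in T2DM rats, Vdac1 was called higher in visceral fat (0.92, SE 0.28, adjusted p = 0.0430 in edgeR), a call lost without any one of the 11 libraries other than visceral T2DM 1, 4 and 6. The proteases vaspin inhibits had almost no reads. Klk7 had reads in 4 of 22 libraries and at most 0.228 CPM, and Klk14 in 1 library at 0.222 CPM. None of the 12 measured tissue kallikrein genes reached the level needed for a test.

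The other clade A serpins had few reads in most libraries. Of 11 measured besides Serpina12, 2 were tested, Serpina1 (alpha-1-antitrypsin, the main elastase inhibitor of plasma) and Serpina3c. Serpina1 was at 0.379, 1.09, 0.308, 5.91, 0.393 and 0.171 CPM in visceral T2DM and at 59.8, 495, 1.13, 0.714, 0.171 and 11.8 CPM in visceral DJB. It was high in DJB libraries 1, 2 and 6 and within the T2DM range in libraries 3, 4 and 5. The log2 difference was 6.09 (SE 1.67, adjusted p = 0.0427 in edgeR), a call lost without any one of the 12 libraries other than T2DM 1, T2DM 4 and DJB 4. Serpina3c reached 16.2 and 30.5 CPM in DJB libraries 1 and 2 and did not pass (3.54, SE 1.79, adjusted p = 0.251 in edgeR).

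Serpina12 and Serpina1 were not in a fixed proportion. In visceral DJB libraries 1 to 6 there were 1.65, 9.27, 0.453, 0.0578, 0.0190 and 2.13 reads of Serpina1 for each read of Serpina12. Visceral DJB libraries 4 and 5 thus held 12.4 and 8.99 CPM of Serpina12 with under 1 CPM of Serpina1. In subcutaneous DJB the ratio was 0.158 in library 1 and 0.966 in library 5. In the RefSeq gene order, Serpina9 and Serpina11 lie on one side of Serpina12 and Serpina4 and Serpina5 on the other. These neighbours were scarce: Serpina4 peaked at 8.81 CPM and Serpina11 at 7.59 CPM, both in visceral DJB library 2, Serpina9 had reads in visceral DJB libraries 5 and 6 only, at 0.413 and 0.340 CPM, and Serpina5 in 2 libraries, at no more than 0.335 CPM. Serpina10, Serpina3m, Serpina6 and Serpina7 also peaked in visceral DJB library 2, at 7.87, 6.76, 3.37 and 0.212 CPM, and Serpina16 peaked at 0.197 CPM in visceral T2DM library 5. Reads shared between close serpin paralogs could be counted under either gene, which leaves Serpina3c and Serpina3m most uncertain.

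A list of 24 measured plasma protein genes typical of liver summed to 1533 and 6606 CPM in visceral DJB libraries 1 and 2, the richest in Serpina12. Over all groups the sum did not follow Serpina12. Its median was 770 CPM in visceral DJB, 813 CPM in visceral T2DM, 695 CPM in subcutaneous DJB and 2213 CPM in subcutaneous T2DM. Visceral T2DM library 2 was at 2119 CPM. Subcutaneous T2DM libraries 2 and 4, with no Serpina12 read, were at 2213 and 4487 CPM. Of 18 tested genes of that list, 6 were called higher in visceral fat after DJB and 0 lower: Azgp1, Hp, Itih3, Hpx, Serpina1 and Apoa1, with a list median of 5.00 against -0.03 for all genes, of which 0.421% were called higher and 4.27% lower. With 1 library left out, 0 to 7 of the list were called. Hp reached 59.9 CPM in library 1 and 824 CPM in library 2 of visceral DJB, the libraries with the most Serpina12, and was 1.83 to 10.9 CPM in libraries 3 to 6, where Serpina12 was still above T2DM levels. Without DJB libraries 1 and 2 no gene of the list was called and its median was 0.14. In subcutaneous DJB, Hp was highest, at 29.4 CPM, in library 5, the library with the most Serpina12, and was 2.08 CPM in library 1, the next in Serpina12. Albumin (Alb) was at 105 to 779 CPM in visceral T2DM and 44.7 to 1221 CPM in visceral DJB, with overlapping groups. The 11 hepatocyte markers summed to 558, 2047, 62.4, 234, 49.3 and 179 CPM in visceral DJB libraries 1 to 6 and to 139 to 1275 CPM in visceral T2DM, and none was at 0 in all libraries of either group. The part of these transcripts in the Serpina12 difference was not tested, and that difference was 2.88 without DJB libraries 1 and 2.

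Serpins of other clades and the remaining adipokines showed few calls beside it. Of 13 tested serpins of other clades, 2 were called lower in visceral fat after DJB, Serpinb5 and Serpinb1a, with a list median of -0.24. Serpinb5 (maspin, an epithelial serpin) fell by 7.31 on the log2 scale (SE 1.35, adjusted p = 0.0282 in edgeR), a call lost without any one of DJB libraries 1, 2, 3, 5 and 6. Levels of 31.8, 63.5 and 47.0 CPM were found for it in the libraries that also held the uroplakins, numbers 2, 3 and 4 of visceral T2DM, with 0.478 to 2.24 CPM in the other T2DM libraries and 0 to 0.268 CPM after DJB. Serpinb1a had an adjusted p of 0.0499 in edgeR and lost its call without any one of 10 of the 12 libraries. Of 28 tested adipokines, Fndc5, which encodes the irisin precursor, was called lower (-4.01, SE 0.56, adjusted p = 0.00602 in edgeR), where 4.27% of all genes were called lower, and 1 call in such a list is near that share. Fndc5 was at 2.19 to 21.8 CPM in visceral T2DM and 0.453 to 1.13 CPM in visceral DJB, without overlap (as for 0.485% of all genes in that direction), and its call was kept with each of the 12 libraries left out and lost under 6 of 11 other settings, among them the fit of only these groups and limma. Cfd (-2.23, SE 0.74, adjusted p = 0.0800 in edgeR), Adm (1.70, SE 0.51, adjusted p = 0.0591 in edgeR) and Adipoq (-1.18, SE 0.70, adjusted p = 0.333 in edgeR) did not pass, and the median adipokine was at -0.07.

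Vaspin has been described as an insulin-sensitising adipokine, and insulin signalling and PPARgamma target genes of the adipocyte were listed beside it. None of 21 insulin signalling genes was called in edgeR after DJB in visceral fat (median 0.10), with 5 at an unadjusted p under 0.05, 2 called by DESeq2 and 0 by limma. There Slc2a4, the insulin-responsive glucose transporter, differed by -1.48 (SE 0.52, adjusted p = 0.0988 in edgeR) and Akt2 by -0.91 (SE 0.32, adjusted p = 0.0952 in edgeR). Of 19 PPARgamma targets, 0 were called higher and 2 lower, Slc27a1 (a fatty acid transporter, -1.54, SE 0.35, adjusted p = 0.0329 in edgeR) and Cidea (a lipid droplet protein of brown fat, -3.66, SE 0.78, adjusted p = 0.0310 in edgeR), with a median of -0.99. Over all genes 0.421% were called higher and 4.27% lower, so the counts of 0 of 21 and 2 of 19 are not read as a result about these lists. Leaving out single libraries lost the Slc27a1 call in 7 of 12 cases and the Cidea call in 6. In subcutaneous fat no gene of these lists was called in edgeR: over all 209 tested genes of every list, 26 had an unadjusted p under 0.05, DESeq2 called 6 and limma 0.

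Between depots in T2DM rats, many fat cell genes were higher in visceral fat and some were lower. There 12 of 16 adipocyte markers were called higher in visceral fat and 0 lower (median 2.77), against 5.44% of all genes called higher and 3.28% lower. That count was 4 without subcutaneous library 4, 5 without subcutaneous library 1 or 2, 6 without visceral library 5, 8 without visceral library 2 or subcutaneous library 5, and 0 without both visceral libraries 2 and 5, where the median was 2.26. With no TMM factors the calls over all genes went from 762 higher and 460 lower to 311 higher and 409 lower, the median gene went from 0.02 to -0.20, and Serpina12 was at 2.71. Of 28 adipokines, 4 were higher, Il6, Adipoq, Rbp4 and Cfd, and 1, Lcn2, lower. Of 19 PPARgamma targets, a list that shares genes with the adipocyte markers, 8 were called higher and 2 lower. The 2 were Plin2 (-2.32, adjusted p = 0.00978 in edgeR) and Me1 (-3.16, adjusted p = 0.0103 in edgeR). Both calls were kept with each library left out and lost without visceral libraries 2, 3 and 4. Adipoq was at 1434 to 7216 CPM in visceral and 102 to 638 CPM in subcutaneous T2DM fat (3.60, SE 0.82, adjusted p = 0.0103 in edgeR), a call kept with each library left out and lost without both visceral libraries 2 and 5. Serpina12 differed in the same sign (3.13), a description with no test. After DJB, 0 of 16 adipocyte markers were called between depots in edgeR (median 0.85, all positive), DESeq2 or limma, with 0, 2 and 10 at an unadjusted p under 0.05. In edgeR the adipokine Il6 was called higher in visceral fat, against 0.228% of all genes called higher and 1.09% lower. Il6 was at 3.38 to 295 CPM in visceral and 1.18 to 5.08 CPM in subcutaneous fat after DJB (5.47, SE 1.08, adjusted p = 0.0249 in edgeR), a call lost without any one of 4 of 11 libraries.

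Genes whose pattern was most like that of Serpina12 were ranked by Pearson's r of log2 CPM (prior count 2) over the 22 libraries, a description with no test, since all points share their libraries, their depth and the group differences that chose the gene. The 12 most alike of 14018 were Mpp3 (r = 0.77, Spearman's rho = 0.80), Fmr1 (0.77 and 0.76), Adora2a (0.75 and 0.74), Bmper (0.75 and 0.77), Lmbrd1 (0.73 and 0.68), Dlg2 (0.73 and 0.76), Cerk, Prkx, Gpr180, Gcgr, Fhl3 and C2cd2l (r from 0.70 to 0.72). Over all genes the median r was -0.01, 13 genes exceeded 0.7 and 22 lay under -0.7. Adora2a encodes an adenosine receptor, Gcgr the glucagon receptor, Cerk ceramide kinase, Bmper a secreted BMP-binding protein, and Mpp3 and Dlg2 are membrane scaffold proteins.

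Mpp3 was at 3.80 to 10.9 CPM in visceral T2DM and 13.2 to 20.5 CPM in visceral DJB, without overlap (as for 0.521% of all genes in that direction). Ranking by likeness to a gene chosen for that separation favours such genes, so nothing is read from it. Adora2a was at 20.5 to 60.5 CPM in visceral T2DM and 67.5 to 106 CPM in visceral DJB, also without overlap, a difference of 1.09 (SE 0.28) that is part of what made it alike. The visceral DJB minus T2DM differences of the 12 genes ran from -0.10 (Dlg2) to 1.56 (Bmper) on the log2 scale, smaller than the 4.32 of Serpina12. In subcutaneous DJB library 5, where Serpina12 was highest in the depot, Fmr1 was at 215 CPM and Dlg2 at 28.1 CPM, against at most 70.0 and 4.78 CPM in the other 4 DJB libraries. Without visceral DJB libraries 1 and 2, the pair farthest from the median Serpina12 level, r was 0.73 for Mpp3, 0.74 for Fmr1 and 0.72 for Dlg2. Of the 12 genes, 4 stayed among the 12 most alike without those libraries, 5 without TMM scaling and 0 on the log2(FPKM + 1) scale, so the membership of the set rests on these choices.

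**Figure D4:**
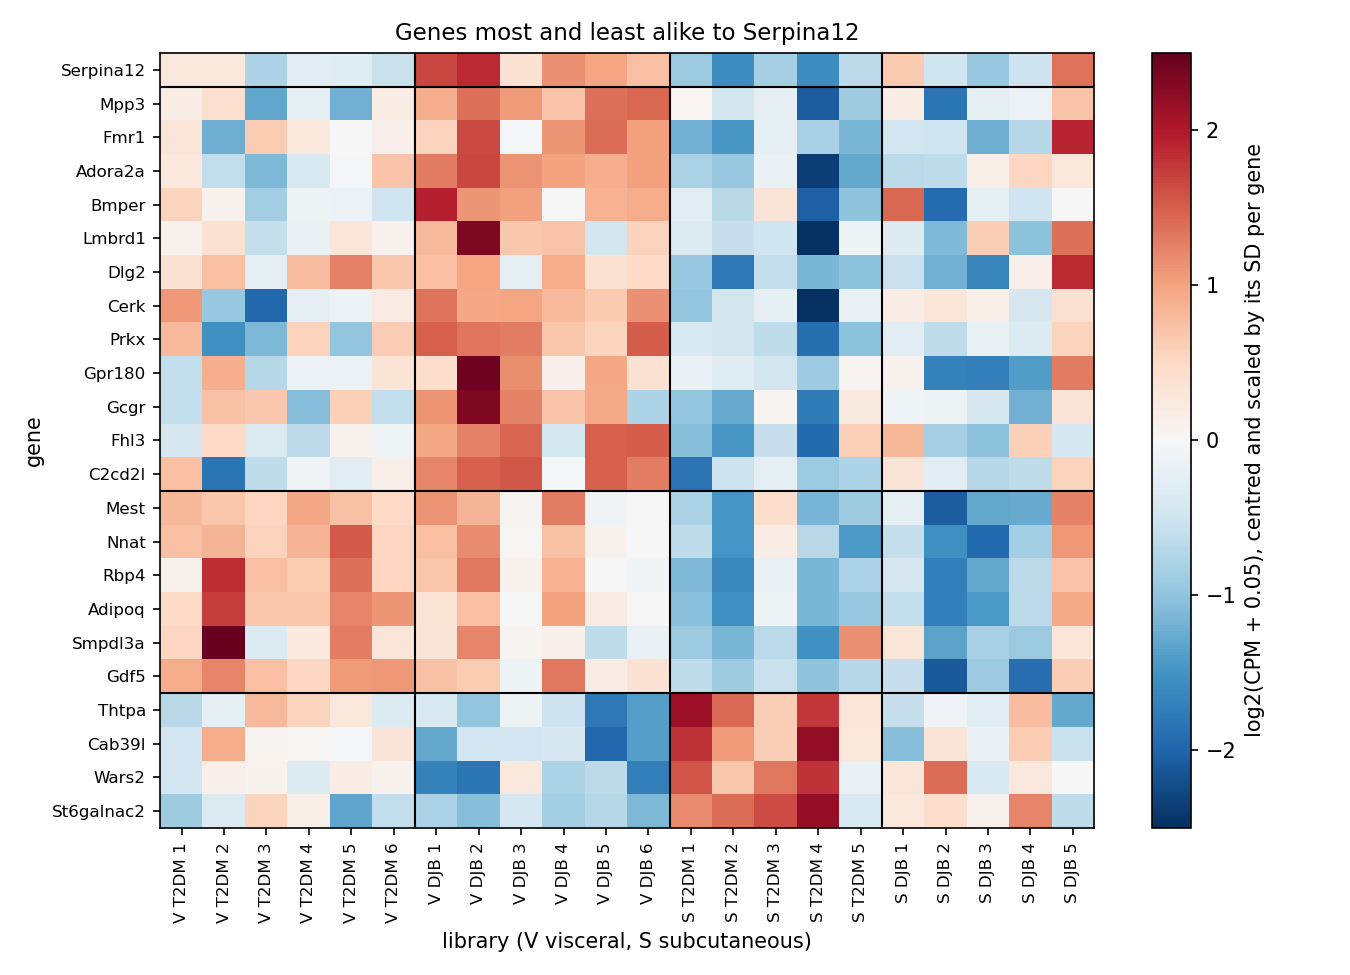
Heat map of log2(CPM + 0.05), centred and scaled per gene, for Serpina12, the 12 most alike genes over 22 libraries, the further genes most alike within groups and the 4 least alike, with 1 column per library and black lines between groups. Serpina12, Mpp3 and Adora2a are higher in every visceral DJB column than in every visceral T2DM column, as for 0.521% of all genes. The others of the 12 overlap between these groups, as Dlg2 does with 3.36 CPM in visceral DJB library 3 and 15.2 CPM in visceral T2DM library 5.

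Within groups, with each group's mean subtracted, the order changed and 2 of those 12 genes stayed among the 8 most alike. Mest (r = 0.77, rho = 0.77), an imprinted gene of growing adipocytes, led, followed by Dlg2 (0.72), Nnat (0.72), Rbp4 (0.72), Adipoq (0.71), Gpr180 (0.71), Smpdl3a (0.69) and Gdf5 (0.68). Over visceral DJB libraries 1 to 6 Mest measured 74.1, 54.5, 22.5, 89.8, 18.9 and 20.6 CPM, and over subcutaneous DJB libraries 1 to 5 it measured 16.2, 1.93, 4.78, 4.89 and 84.7 CPM. It was thus high in subcutaneous DJB library 5 with Serpina12, and in visceral DJB it was highest in library 4, not in library 2. Adipoq had an r of 0.82 within the subcutaneous groups and 0.45 within the visceral ones, and was 2576 CPM in subcutaneous DJB library 5 against 79.5 to 334 CPM in the other 4.

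By lists, likeness to Serpina12 within groups was computed in each depot, and the difference between depots was not tested. Adipocyte markers had a median r of 0.60 in subcutaneous fat (16 of 16 positive) and of 0.03 in visceral fat (9 of 16 positive). Liver plasma proteins had a median r of 0.60 in visceral fat (18 of 18 positive) and 0.46 in subcutaneous fat (17 of 18 positive). B and plasma cell markers had a median of 0.08 in visceral fat (5 of 7 positive) and -0.49 in subcutaneous fat (1 of 7 positive), and -0.34 over both depots (0 of 7 positive). Hspa5 had an r of -0.19 in visceral fat, 0.47 in subcutaneous fat and -0.01 over both. The median of all tested genes was -0.02 in visceral fat (6685 of 14018 positive), -0.03 in subcutaneous fat (6636 positive) and -0.01 over both depots (6656 positive). Other lists also had medians away from 0. In visceral and subcutaneous fat these were 0.65 and 0.43 for hepatocyte markers and 0.46 and 0.65 for exocrine pancreas markers. They were 0.43 and -0.52 for T and NK cell markers and 0.57 and -0.55 for blood markers. Genes of a list share libraries and are not independent, so these medians describe the libraries and are not a test of the lists. Single subcutaneous DJB libraries stood apart in these sums. B and plasma cell markers summed to 3095 CPM in library 2 and 618 CPM in library 4, against 72.9 to 107 CPM in the others. Adipocyte markers summed to 20686 CPM in library 5, against at most 6143 CPM in the others.

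**Figure D5:**
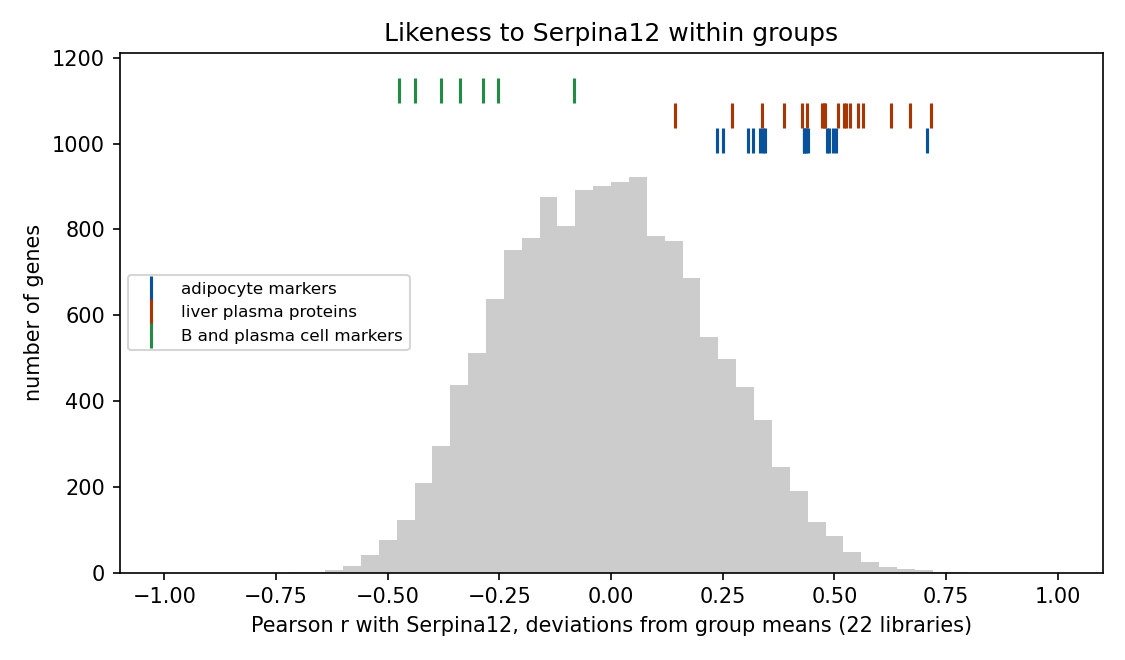
Histogram of Pearson's r with Serpina12 over 14018 genes, from deviations from group means over 22 libraries, with ticks for 3 gene lists. The adipocyte markers and liver plasma proteins lie above 0 with medians of 0.43 and 0.49, and the B and plasma cell markers below 0 with a median of -0.34 over both depots together.

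The 8 genes alike in both depots at once were Lmbrd1, Klhl5, Cerk, Prkx, Hpx, Mpp3, Orm1 and Ptpn12, ranked by the smaller of the visceral and subcutaneous r. Each such r still holds the DJB minus T2DM difference that chose Serpina12, so the ranking is a description. With group means subtracted, their visceral r ran from 0.06 (Prkx and Ptpn12) to 0.59 (Orm1). Their subcutaneous r then ran from 0.39 (Cerk) to 0.76 (Hpx). Of the 8 genes, 0 were among the 8 most alike within groups. Lmbrd1, a lysosomal membrane protein needed for vitamin B12 release, had r = 0.71 over 12 visceral and 0.63 over 10 subcutaneous libraries. For Hpx and Orm1, plasma proteins made by liver, r over 22 libraries was 0.57 and 0.67, and 0.26 and 0.49 without visceral DJB libraries 1 and 2. Over the 10 subcutaneous libraries r was 0.60 for Hpx and 0.70 for Orm1, with rho of 0.18 and 0.40. The least alike genes were Thtpa (r = -0.80, rho = -0.82), Cab39l (-0.77), Wars2 (-0.75) and St6galnac2 (-0.75). Thtpa, a thiamine triphosphatase, was at 14.3 to 20.1 CPM in visceral DJB and 21.9 to 31.8 CPM in subcutaneous T2DM, the groups at either end of the Serpina12 order. Picking the gene least like Serpina12 favours such a separation, so nothing is read from it.

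Promoters of 9 of the 12 most alike genes were matched in RefSeq. Of these, 7 held a GC box, 2 a CCAAT box and 0 the C/EBP-type motif of the Serpina12 window, beside 33.1%, 37.5% and 10.6% of all promoters. Of the motifs absent from that window, TATAAA was in 0 of the 9 (14.2% of all) and AGGTCA in 2 (16.2%). The E-box was in 4 (72.1%), the FOXO-type motif in 2 (3.78%) and the CRE in 1 (1.83%). The genes were chosen from these data, and 0 of the 12 stayed on the log2(FPKM + 1) scale, so nothing is read from these counts.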

How the data were processed

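Gene expression was measured by RNA-seq in 22 rat fat libraries, 5 or 6 per group, grouped by the sample titles. For each library the authors deposited whole-number read counts and FPKM, which corrects counts for gene length and depth, per the file headers. The submitters' processing notes name cutadapt 1.9, FastQC and build mRatBN7.2. Which aligner, counter and strand setting were used is not given in the sources used here. Coordinates in the table exceed that build's length for one chromosome, so none is reported from it. Promoter coordinates and sequence are those of RefSeq GRCr8.

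A gene needed FPKM of 1 or more in 5 or more libraries, and the 14019 of 24286 that had it entered edgeR 4.0.16's quasi-likelihood test on the deposited counts, with TMM scaling, a single model of 4 group means over 22 libraries, and Benjamini-Hochberg adjustment over 14019 genes at 0.05. SE is the log2 difference divided by the square root of F. Total counts ran from 46824314 to 88829000, and intervals and floors (3 counts) cover counting error only. Likeness is Pearson's r of log2 CPM with a prior count of 2, leaving out bare locus identifiers. The text names Serpina12, the 12, 8 and 8 genes most alike over all libraries, within groups and in both depots, the 4 least alike, all partners and clade A serpins, and for other lists up to 4 members with the smallest p and the most abundant one. Genes named beyond that were chosen after their values were seen. Serpina12 and the gene lists were chosen with earlier results of these data known. Alternatives used DESeq2 1.42.0, limma 3.58.1 on log2(FPKM + 1) and log2(FPKM + 0.1), other scalings and filters, and left-out libraries. The fitting was tested on simulated data. The results of 1 gene of the serpin and adipokine lists are not reported here.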

Additional observations from a re-analysis of the deposited data

Results flagged for a closer look

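Among 24 sets of values in groups of 5 or 6 libraries, 5 held a library whose gap to its nearest neighbour took an unusually large share of the group's range. About 1 in 20 sets of normally distributed values would pass the cut-off. CPM values are skewed and the sets share libraries, so 5 of 24 is not read as an excess. Serpina12 in subcutaneous DJB library 5 was at 19.3 CPM, and the next library was at 4.58 CPM. In the same library the 16 adipocyte markers summed to 20686 CPM, against 6143 CPM in the next. Vdac1 in subcutaneous T2DM library 5 was low, at 44.5 CPM, with the next at 62.8 CPM. The liver plasma protein list summed to 6606 CPM in visceral DJB library 2, the library with the most Serpina12, against 1533 CPM in the next, and to 2119 CPM in visceral T2DM library 2, against 851 CPM in the next. No cause was tested.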

How the results depend on the processing

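Serpina12 kept its direction in all 4 comparisons under every alternative run. With 1 library left out the log2 differences ran from 3.74 to 4.70 (visceral DJB minus T2DM), 3.59 to 6.06 (subcutaneous), 2.73 to 3.74 (depots in T2DM) and 1.39 to 3.86 (depots after DJB). On log2(FPKM + 1) the visceral difference was 2.51 and the subcutaneous one 1.16 (2.47 on log2(FPKM + 0.1)), scales that shrink low values by construction. The depot differences on log2(FPKM + 1) were 0.40 in T2DM and 1.75 after DJB, and the latter was 0.53 without visceral DJB libraries 1 and 2. With DESeq2 the T2DM depot difference was 3.15, also a description with no test. Of genes in the lists, 34 were called in visceral fat, 1 to 49 with 1 library left out, 0 with only the 2 groups in the fit, with limma, without DJB libraries 1 and 2 or without T2DM libraries 2, 3 and 4. Leaving out only T2DM libraries 2 and 5 left 16. In the subcutaneous depot 0 were called, 0 to 0 with 1 library left out, and 6 by DESeq2. Between depots in T2DM 51 were called, 31 to 60 with 1 library left out, 25 without T2DM libraries 2 and 5 and 30 without 2, 3 and 4. After DJB 19 were called, 1 to 41 with 1 library left out, 1 with only the 2 groups, 1 without visceral DJB libraries 1 and 2, 52 by DESeq2 and 3 by limma. Of the 12 most alike genes 6 to 11 stayed with 1 library left out, 5 without TMM, 4 without visceral DJB libraries 1 and 2 and 0 on log2(FPKM + 1). The cause of these moves was not tested.

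Same-numbered replicates deviated together in only 3 of 6, 1 of 5, 1 of 5 and 1 of 5 pairs (correlations -0.17 to 0.33, over 0.1 counted). Weak correlations cannot show whether same-numbered samples share a rat, so pairing is not known and the main fit used none. With a replicate block the Serpina12 differences were 4.28, 4.24, 3.28 and 3.32, and 0, 0, 38 and 1 list genes were called. Omitting TMM and leaving out sets of libraries were chosen after seeing the data. The unfiltered and log2(FPKM + 0.1) fits gave no list counts. At 37 counts over 5 libraries, depth limits how well the subcutaneous T2DM level is known, and hence that ratio.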
